A study of Drosophila melanogaster with 12 samples.

Results

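The 10 genes described here encode parts of the machinery that copies DNA: Mcm2, Mcm3, Mcm5, Mcm6 and Mcm7 of the replicative helicase, the helicase loader dup, the sliding clamp mus209, the ribonucleotide reductase subunits RnrL and RnrS, and the S-phase cyclin CycE. They were chosen by symbol for their function, and all 10 were found among the 15222 genes of the table of read counts. RNA came from the fat body of female Drosophila melanogaster larvae in their last instar, at the wandering stage, reared at 25 °C. In all 4 groups the mothers came from a UAS-Dcr2; r4-GAL4 stock, in which r4-GAL4 drives expression in the fat body, so control larvae carried the driver and UAS-Dcr2 as well. Larvae labelled InRi had fathers of stock 992, which carries a construct that expresses double-stranded RNA against the insulin receptor gene InR under GAL4 control. Control larvae had fathers of the w1118 stock 60000. Each genotype was reared on food with 0.7 M or 0.15 M sucrose, with 3 libraries in each of the 4 groups. The fat bodies were freed by shearing and collected by centrifugation, and neither the number of animals in a library nor separate cultures are stated. All p-values therefore measure only the spread between these libraries, which may be technical.

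Larval fat body cells do not divide. They grow by endocycles, in which rounds of DNA synthesis follow each other without mitosis and the cells become polyploid. Before each round, dup places a ring of the 6 MCM proteins on the origins, CycE with its kinase Cdk2 triggers firing, mus209 holds the polymerases on the template, and ribonucleotide reductase supplies the deoxyribonucleotides. In Drosophila, feeding and insulin signalling are known to drive these cycles in the growing fat body, and the cycles slow as larvae reach the end of feeding.

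The libraries held 872755 to 7114144 counts, and 116 to 1206 of these fell on the 10 genes. Levels are given as CPM, counts divided by the TMM-scaled library size and multiplied by 1e+06. Replicate 2 of control on 0.15 M sucrose stood apart: it detected 7628 genes, against 9214 to 11312 in the other 11 libraries. Its rank correlation with the others was 0.676 to 0.774, against 0.859 to 0.974 between other pairs. Calls among the 10 genes that depend on it are given with and without it, while group means and sums include it. Differences were tested with edgeR in 1 fit of all 12 libraries, p-values were adjusted over the 8662 genes with enough counts, and a gene is called where the adjusted p is under 0.05. A negative log2 fold change means lower in libraries labelled InRi than in control, or lower on 0.7 M than on 0.15 M sucrose. InR, the target of the construct, went against the label: it averaged 140 ± 27.8 CPM in libraries labelled InRi and 52.4 ± 6.10 CPM in control on 0.7 M sucrose. On 0.15 M sucrose it averaged 133 ± 17.9 CPM in libraries labelled InRi and 43.4 ± 17.5 CPM in control (SD, n = 3 each). Its log2 fold change averaged over both diets was 1.51 (SE 0.211, edgeR adjusted p = 0.000716). Every direction below is therefore one of libraries labelled InRi, and whether the receptor was reduced in them was not tested. The 8 fat body markers held a summed 161146 to 356431 CPM in each library, more than any other marker list.

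All 10 genes were expressed at low levels. On 0.7 M sucrose their summed level was 124 ± 6.57 CPM in libraries labelled InRi and 141 ± 13.9 CPM in control. On 0.15 M sucrose it was 171 ± 26.9 CPM in libraries labelled InRi and 210 ± 2.66 CPM in control (SD, n = 3 each). In replicate 2 of control on 0.15 M the sum, 207 CPM, was made up differently. Mcm2 was at 45.4 CPM there, against 17.4 and 17.1 CPM in replicates 1 and 3, and Mcm5 at 4.46 CPM, against 16.4 and 17.7 CPM. Within each genotype the sums on 0.7 M and 0.15 M sucrose did not overlap, and the lowest group sum was that of libraries labelled InRi on 0.7 M sucrose. In bulk RNA of this kind, fewer cells of a type and less RNA per cell cannot be told apart.

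Per length of transcript, RnrS and mus209 stood above the other 8 genes. Over the 11 libraries other than replicate 2 of control on 0.15 M sucrose, RnrS averaged 14.999 ± 4.33 and mus209 14.8 ± 4.69 CPM per kb of exon. Mcm7 followed at 6.63 ± 1.81, Mcm6 at 6.33 ± 1.79, RnrL at 5.69 ± 1.23, Mcm3 at 5.61 ± 2.16, Mcm5 at 5.19 ± 1.41 and Mcm2 at 4.86 ± 0.913 CPM per kb (SD, n = 11). CycE at 3.47 ± 0.835 and dup at 2.97 ± 0.573 CPM per kb were the lowest. Of the 9 steps in this order, 2 exceeded their spread: mus209 was above Mcm7 in 11 of 11 libraries, and Mcm2 was above CycE in 10 of 11. The other neighbours changed places between libraries.

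**Figure D1:**
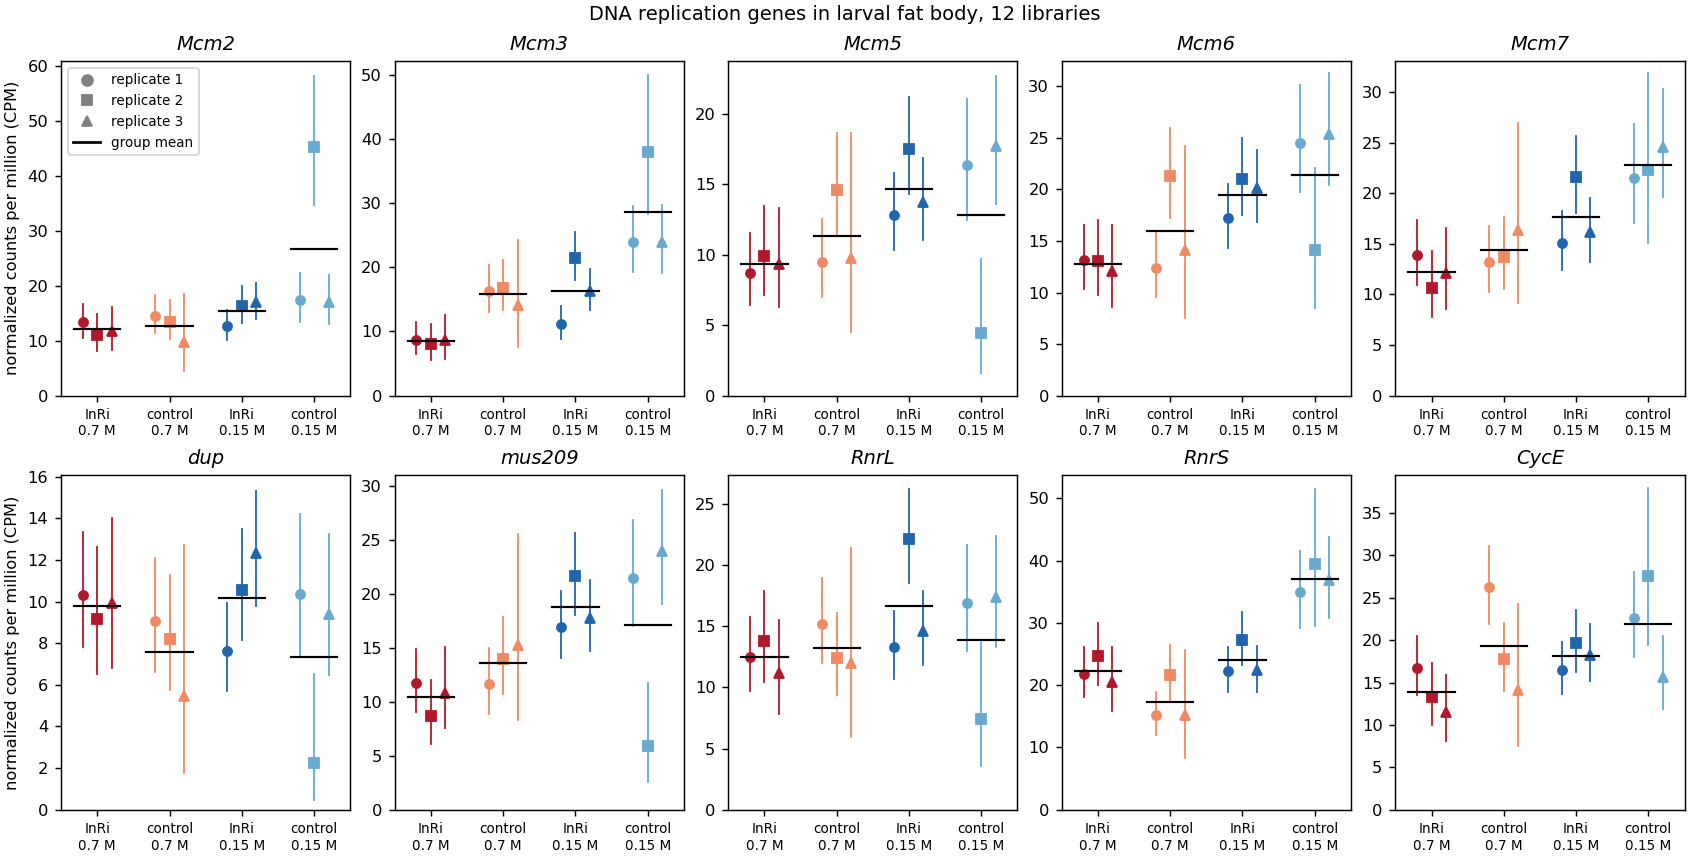
Level of each of the 10 genes in CPM (vertical axes, separate scales from 0) in the 12 libraries, grouped by label and sucrose. Symbols mark the replicate number, thin lines 95% counting intervals and black bars group means; Mcm3 sits at 7.98 to 8.72 CPM in libraries labelled InRi on 0.7 M sucrose, below the other 9 libraries, and the second control library on 0.15 M sucrose stands apart for Mcm2, Mcm3, Mcm5, dup, mus209 and RnrL.

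Mcm3 was the one gene of the 10 that passed the test over all 12 libraries, and it was lower both in libraries labelled InRi and on 0.7 M sucrose. In these averaged comparisons 5.13% of all genes were called lower against control and 0.797% lower with sucrose. Levels of Mcm3 were 8.72, 7.98 and 8.69 CPM in libraries labelled InRi on 0.7 M sucrose, against 16.4, 16.8 and 14.2 CPM in control on that diet. Mcm3 levels on 0.15 M sucrose were 11.1, 21.5 and 16.3 CPM in libraries labelled InRi, against 24.0, 37.9 and 24.0 CPM in control. Libraries labelled InRi lay below control on both diets without overlap, and within each genotype the libraries on 0.7 M lay below those on 0.15 M without overlap. Averaged over both diets, Mcm3 was 0.554-fold in libraries labelled InRi relative to control (log2 fold change -0.85, SE 0.205, edgeR adjusted p = 0.0184). Averaged over both genotypes, it was 0.544-fold on 0.7 M relative to 0.15 M sucrose (log2 fold change -0.88, SE 0.205, edgeR adjusted p = 0.0427). Without replicate 2 of control on 0.15 M sucrose, where Mcm3 was highest, the changes were -0.74 (adjusted p = 0.00711) and -0.76 (adjusted p = 0.0148).

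Both Mcm3 calls were close to the threshold. The call against control was lost without replicate 2 of libraries labelled InRi on 0.7 M sucrose, replicate 1 of control on 0.7 M or replicate 1 of libraries labelled InRi on 0.15 M (edgeR adjusted p = 0.0539, 0.0522 and 0.0540). The call for sucrose was lost on leaving out any one of 9 of the 12 libraries, with edgeR adjusted p between 0.0515 and 0.132, while its log2 fold change was between -0.98 and -0.75 over all 12 omissions. Scaling by total counts ended both calls (-0.79 against control and -0.998 with sucrose, edgeR adjusted p = 0.0534 and 0.0535), and testing without the filter on low counts ended the call for sucrose (-0.85, adjusted p = 0.0560). The interaction, which asks whether the difference from control depends on the diet, was -0.13 for Mcm3 (SE 0.406, edgeR adjusted p = 0.972).

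Mcm7 was the other helicase subunit whose libraries on 0.7 M lay below those on 0.15 M in both genotypes. It stood at 13.9, 10.6 and 12.1 CPM on 0.7 M against 15.1, 21.6 and 16.1 CPM on 0.15 M sucrose in libraries labelled InRi, and at 13.2, 13.7 and 16.3 against 21.5, 22.3 and 24.5 CPM in control. Of all tested genes, 1.36% lay lower on 0.7 M without overlap in both genotypes, and 4.35% lay lower in libraries labelled InRi without overlap on both diets, as Mcm3 did. Averaged over both genotypes, Mcm7 had a log2 fold change of -0.61 with sucrose (SE 0.169, edgeR adjusted p = 0.0912), and of -0.62 without replicate 2 of control on 0.15 M (adjusted p = 0.0224). An antisense RNA annotated on the opposite strand overlaps 81.7% of the Mcm7 exons. The strand setting of the counts is not given in the sources used here, so reads of this pair cannot be told apart. For Mcm3, dup and CycE such overlaps cover 2.33%, 5.04% and at most 2.97% of the exons.

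Mcm6 and Mcm5 lay lower on 0.7 M sucrose, without overlap, in libraries labelled InRi. Mcm6 stood at 13.2, 13.1 and 12.1 CPM on 0.7 M, against 17.2, 21.0 and 20.1 CPM on 0.15 M. Mcm5 stood at 8.72, 9.91 and 9.32 CPM on 0.7 M, against 12.8, 17.5 and 13.7 CPM on 0.15 M. In control both genes were split by the library that stood apart. Mcm6 was at 12.4, 21.3 and 14.2 CPM on 0.7 M, against 24.5, 14.1 and 25.4 CPM on 0.15 M, and Mcm5 was at 9.46, 14.6 and 9.80 CPM, against 16.4, 4.46 and 17.7 CPM. The sucrose change averaged over both genotypes was -0.52 for Mcm6 (SE 0.199, edgeR adjusted p = 0.232) and -0.44 for Mcm5 (SE 0.268, adjusted p = 0.467). Without that library both passed, at -0.62 (SE 0.150, adjusted p = 0.0235) and -0.61 (SE 0.160, adjusted p = 0.0336).

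Mcm2 moved the opposite way in the library that stood apart. On 0.7 M sucrose it was at 13.3, 11.1 and 11.8 CPM in libraries labelled InRi, against 14.6, 13.5 and 9.80 CPM in control, and the groups overlapped. On 0.15 M it was at 12.7, 16.4 and 17.055 CPM in libraries labelled InRi, against 17.4, 45.4 and 17.125 CPM in control, where the second library held the highest level of all 12. Its sucrose change averaged over both genotypes was -0.66 (SE 0.254, edgeR adjusted p = 0.232), and -0.37 without that library (SE 0.149, adjusted p = 0.164).

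The 6 subunits of the helicase act as one ring in equal numbers, so their RNA levels per length were set side by side within each library, with dpa, the Drosophila Mcm4 gene, completing the set. In 11 libraries the highest subunit exceeded the lowest by 1.29 to 2.20 times. In replicate 2 of control on 0.15 M sucrose the ratio was 8.60, with Mcm2 highest at 15.7 CPM per kb and Mcm5 lowest at 1.82 CPM per kb, which rested on 6 counts for Mcm5. Mcm3 was the lowest subunit in 3 of 3 libraries labelled InRi on 0.7 M sucrose, at log2 values of -0.50, -0.53 and -0.41 relative to the median subunit, against 0.19, 0.08 and 0.01 in control on that diet. On 0.15 M sucrose Mcm3 was at -0.39, 0.08 and -0.05 in libraries labelled InRi, against 0.00, 0.96 and -0.03 in control, and the groups overlapped. These ratios within a library do not depend on the scaling between libraries.

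**Figure D2:**
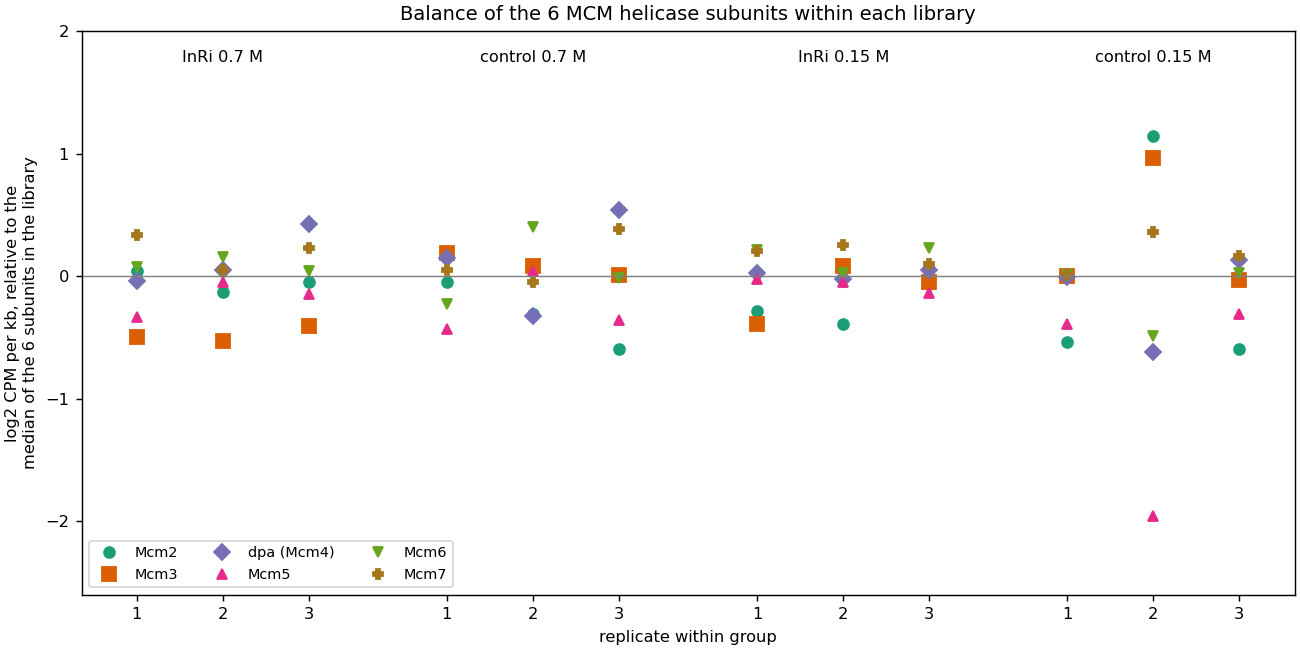
Log2 level per kb of each MCM subunit relative to the median of the 6 subunits in the same library (vertical axis), for the 3 replicates of each group (horizontal axis). Mcm3, the large squares, is at -0.41 or lower in the 3 InRi-labelled libraries on 0.7 M sucrose and at 0.01 or higher in the 3 control libraries on 0.7 M, and the subunits of the second control library on 0.15 M spread furthest, with Mcm5 lowest.

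The loader dup, the Drosophila Cdt1, showed no change with sucrose beyond its spread. On 0.7 M sucrose it was at 10.3, 9.18 and 9.94 CPM in libraries labelled InRi, above the 9.07, 8.20 and 5.45 CPM of control without overlap. The nearest values were only 9.18 and 9.07 CPM, and the 5.45 CPM rests on 5 counts (95% counting interval 1.77 to 12.7 CPM). That difference did not pass (log2 fold change 0.30, SE 0.395, edgeR adjusted p = 0.77). On 0.15 M the values were 7.62, 10.6 and 12.3 CPM in libraries labelled InRi and 10.4, 2.23 and 9.42 CPM in control, with overlap. The lowest value rests on 3 counts, with a 95% counting interval of 0.460 to 6.52 CPM. Of all tested genes, 18.5% lay higher without overlap in libraries labelled InRi on 0.7 M sucrose, and dup was the only one of the 10 to do so. Its log2 fold change was 0.33 against control (SE 0.276, edgeR adjusted p = 0.482) and -0.02 with sucrose (SE 0.276, adjusted p = 0.985), both averaged. These were 0.16 (SE 0.178, adjusted p = 0.574) and -0.17 (SE 0.178, adjusted p = 0.623) without the second control library on 0.15 M.

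The clamp gene mus209, the Drosophila PCNA, passed for sucrose once the library that stood apart was left out. In libraries labelled InRi it was at 11.7, 8.70 and 10.9 CPM on 0.7 M, against 16.9, 21.6 and 17.8 CPM on 0.15 M sucrose, without overlap. In control it was at 11.6, 14.0 and 15.2 CPM on 0.7 M, against 21.5, 5.95 and 24.0 CPM on 0.15 M, where the second library was below and the other two above every library on 0.7 M. Averaged over both genotypes the sucrose change was -0.63 with all libraries (SE 0.264, edgeR adjusted p = 0.274) and -0.82 without that library (SE 0.145, adjusted p = 0.00360). In libraries labelled InRi alone it was -0.83 in the second fit (SE 0.190, adjusted p = 0.0205), against -0.84 in the first (SE 0.365, adjusted p = 0.402). No library of that comparison was omitted: the fits differ in the estimate of spread that all groups share, in the scaling and in the genes tested.

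Of the 2 ribonucleotide reductase genes, RnrS, the small subunit, was highest in control on 0.15 M sucrose. In control it was at 15.2, 21.7 and 15.2 CPM on 0.7 M, against 34.9, 39.4 and 36.8 CPM on 0.15 M, a log2 fold change of -1.07 with sucrose (SE 0.231, edgeR adjusted p = 0.0847). The 9 libraries of the other 3 groups ranged from 15.2 to 27.3 CPM, all below those of control on 0.15 M. That difference passed without replicate 2 of control on 0.15 M (-1.04, SE 0.202, adjusted p = 0.0209), although RnrS in that library was close to the other two of its group. RnrS in libraries labelled InRi was at 21.9, 24.7 and 20.5 CPM on 0.7 M, against 22.3, 27.3 and 22.4 CPM on 0.15 M, with overlap (log2 fold change -0.10, SE 0.220, adjusted p = 0.948). The interaction, the test of whether these sucrose changes differ, was 0.97 (SE 0.318, unadjusted p = 0.00980, edgeR adjusted p = 0.888) and did not pass.

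RnrL, the large subunit, did not pass in any comparison. Libraries labelled InRi held it at 12.5, 13.8 and 11.2 CPM on 0.7 M and 13.3, 22.1 and 14.6 CPM on 0.15 M sucrose. In control it was at 15.2, 12.4 and 11.98 CPM on 0.7 M and 16.9, 7.44 and 17.4 CPM on 0.15 M. Groups overlapped in both genotypes, and the averaged sucrose change was -0.26 (SE 0.226, edgeR adjusted p = 0.627). The ratio of RnrS to RnrL per length was 2.84, 2.89 and 2.97 in libraries labelled InRi on 0.7 M sucrose, against 1.62, 2.83 and 2.06 in control. On 0.15 M it was 2.72, 1.99 and 2.48 in libraries labelled InRi, against 3.34, 8.57 and 3.42 in control. The ratio in libraries labelled InRi thus lay above control on 0.7 M and below it on 0.15 M, without overlap on either diet, although on 0.7 M the nearest values were 2.84 and 2.83.

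CycE, which sets the entry into each S phase, overlapped between groups in all 4 pairwise comparisons. On 0.7 M sucrose it was at 16.7, 13.3 and 11.5 CPM in libraries labelled InRi, against 26.2, 17.7 and 14.2 CPM in control. On 0.15 M it was at 16.5, 19.7 and 18.3 CPM in libraries labelled InRi, against 22.6, 27.5 and 15.7 CPM in control. Its averaged log2 fold changes were -0.39 against control (SE 0.205, edgeR adjusted p = 0.248) and -0.25 with sucrose (SE 0.205, adjusted p = 0.609). The change against control was -0.24 without replicate 1 of control on 0.7 M. With sucrose it was -0.39 without that library and -0.15 without replicate 2 of control on 0.15 M, and neither comparison passed under any omission of 1 library.

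Over the whole set, the averaged sucrose changes of the 10 genes had the same sign, although that of dup was close to 0 (-0.02, SE 0.276) and was 0.01 in control alone. Averaged over both genotypes all 10 log2 fold changes were below 0, as were 49.6% of all genes. The median of the 10 was -0.55, while the median over all 8662 tested genes was 0.00. Against 2.34% of all genes called in either direction and 0.797% called lower, 1 of the 10, Mcm3, was called lower by edgeR, and 6 had an unadjusted p under 0.05, as did 15.6% of all genes. Without replicate 2 of control on 0.15 M, 6 were called lower: Mcm3, Mcm5, Mcm6, Mcm7, mus209 and RnrS, where 2.97% of all genes were. A fit by limma-voom that weights libraries by quality gave that library a weight of 0.0671, against 0.702 to 1.89 for the others, and called 6 of 6 of these genes lower, against 2.99% of all genes lower and 7.77% in either direction. DESeq2 called Mcm3, Mcm7 and RnrS lower, against 5.58% of all genes in either direction. Mcm2, dup, RnrL and CycE passed in none of these fits. In libraries labelled InRi alone, edgeR called 0 of the 10 and 1.26% of all genes. An unadjusted p under 0.05 was held by 4 of the 10 and 11.4% of all genes, limma-voom called 1 (7.09%) and DESeq2 0 (3.61%). In control alone edgeR called 0 as well, and 0.277% of all genes. There 4 of the 10 and 10.5% of all genes had an unadjusted p under 0.05, and limma-voom and DESeq2 called 1 each (1.52% and 2.09%). Without that library, Mcm3 (-0.93, adjusted p = 0.0291) and mus209 were called lower in libraries labelled InRi, where 2.1% of all genes were, and RnrS in control, where 0.812% were. By overlap, 5 of the 10 lay lower on 0.7 M in libraries labelled InRi (Mcm3, Mcm5, Mcm6, Mcm7 and mus209; 12.2% of all genes), and 4 in control (Mcm2, Mcm3, Mcm7 and RnrS; 6.2% of all genes).

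Between libraries labelled InRi and control the directions were mixed. Averaged over both diets, 8 of the 10 log2 fold changes were below 0, with a median of -0.20 against -0.01 over all genes, and dup and RnrL were above 0. The median was -0.28, and RnrL was below 0 (-0.08), without replicate 2 of control on 0.15 M. Mcm3 was called lower, beside 11.4% of all genes in either direction and 5.13% lower, and it was again the only one of the 10 called without replicate 2 of control on 0.15 M, beside 10.8% of all genes lower. With all 12 libraries, 1 of the 10 had an unadjusted p under 0.05, beside 26.9% of all genes. Mcm3 was likewise the only one called by limma-voom and DESeq2, beside 24.4% and 17.7% of all genes in either direction. On 0.7 M sucrose edgeR called 0 of the 10 and 5.41% of all genes. An unadjusted p under 0.05 was held by 1 of the 10 and 18.7% of all genes, limma-voom called 1 (18.3%) and DESeq2 0 (9.68%). Mcm3 passed there without that library (-0.91, SE 0.243, adjusted p = 0.0192; 7.5% of all genes lower), and it was the only one to lie lower without overlap (16.5% of all genes). On 0.15 M sucrose edgeR called 0 of the 10 and 1.73% of all genes. Of the 10, 2 had an unadjusted p under 0.05 (18.8% of all genes), limma-voom and DESeq2 called 0 (6.25% and 6.74%), and Mcm2, Mcm3 and RnrS lay lower without overlap (9.33% of all genes). For Mcm2 the nearest values were 17.055 and 17.125 CPM, closer than their counting error. For the interaction edgeR called 0 of the 10 and 0% of all genes. Of the 10, 1 had an unadjusted p under 0.05 (5.26% of all genes), and limma-voom and DESeq2 called 0 (0.0462% and 0.197%).

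**Figure D3:**
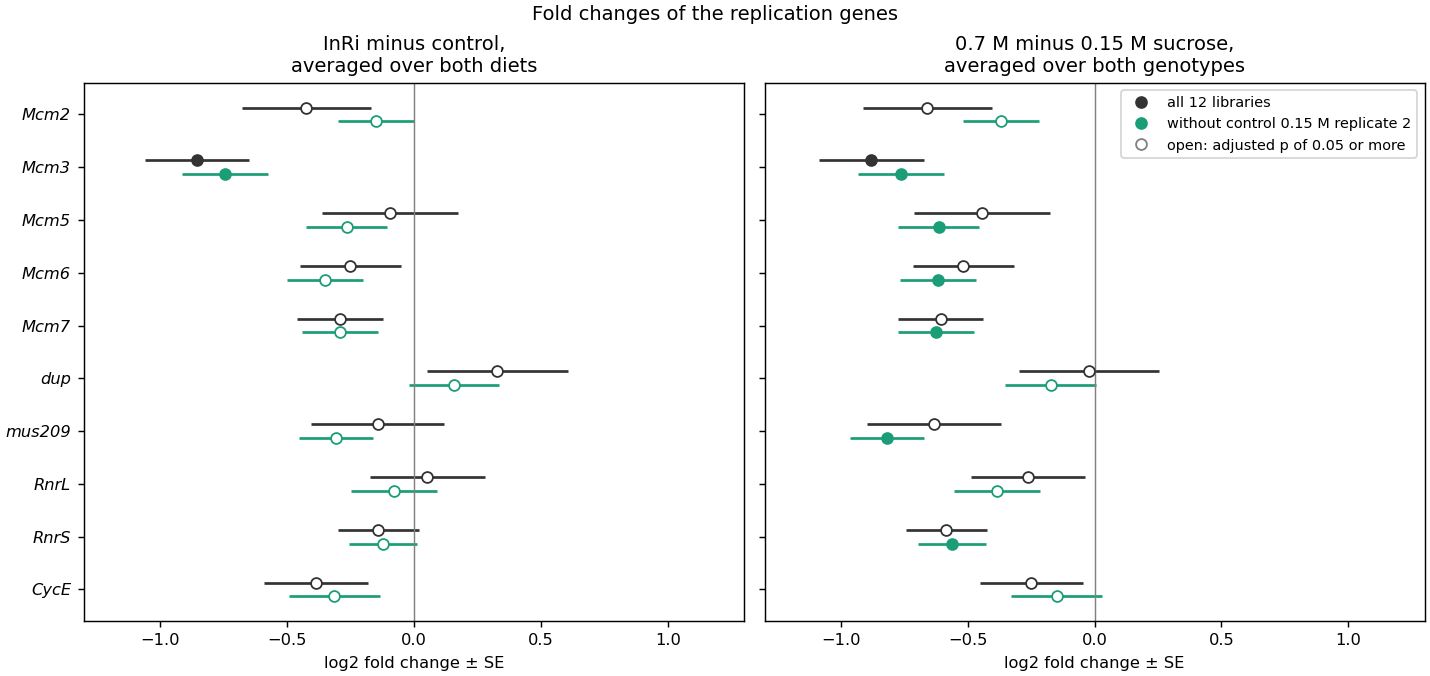
Log2 fold change ± SE of each gene (horizontal axis) for libraries labelled InRi minus control, averaged over both diets, and for 0.7 M minus 0.15 M sucrose, averaged over both genotypes. Filled points passed an edgeR adjusted p of 0.05: with all 12 libraries only Mcm3, in both panels, and without the second control library on 0.15 M sucrose 6 genes in the sucrose panel.

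The wider replication list, 60 further genes of origin licensing, polymerases, clamp loading, nucleotide synthesis and S-phase control, of which 59 were tested, held few calls. With sucrose 0 passed by edgeR, beside 2.34% of all genes, and 5 had an unadjusted p under 0.05, beside 15.6%. Of the 59, 40 were below 0, beside 49.6% of all genes, and the median of the 59 was -0.20. By smallest p these were led by dUTPase, which removes dUTP from the nucleotide pool (-0.86, adjusted p = 0.0798), E2f2, a repressive E2F factor (0.59, adjusted p = 0.123), and Orc4 of the origin recognition complex (-0.59, adjusted p = 0.167). After them came Psf2 and Psf3 of the GINS complex (0.59 and 0.78, adjusted p = 0.279 and 0.335) and Ts, thymidylate synthase (-0.93, adjusted p = 0.308). Without replicate 2 of control on 0.15 M, 3 fell: dUTPase (-0.65), DNA-ligI, the ligase that seals Okazaki fragments (-0.90), and dpa (-0.56), with edgeR adjusted p of 0.0248, 0.0434 and 0.0451. In that fit 2.97% of all genes were called lower. The gene lat, the Drosophila Orc3, was at 0 in all 12 libraries, while Orc1, Orc2, Orc4, Orc5 and Orc6 had counts in every group. Whether its RNA was absent or its reads were not counted under this symbol was not tested.

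Between libraries labelled InRi and control, averaged over both diets, 1 of the 59 was called, beside 11.4% of all genes. An unadjusted p under 0.05 was held by 7 of the 59, beside 26.9% of all genes. The gene called was dUTPase, which fell (-0.93, SE 0.232, edgeR adjusted p = 0.0223). Others of small p that did not pass were Pole2 of polymerase epsilon (-1.06, adjusted p = 0.0593), SuUR, which represses replication of heterochromatin in polyploid cells (0.60, adjusted p = 0.121), the flap nuclease Fen1 (-0.64, adjusted p = 0.134) and the primase subunit DNApol-alpha60 (-0.72, adjusted p = 0.175). The median of the 59 was -0.12. Without replicate 2 of control on 0.15 M, genes called lower included dUTPase, Pole2 and Sld5 of the GINS complex, and Cul-4, part of the ligase that removes dup in S phase, was called higher. In that fit 10.8% of all genes were called lower.

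Mitotic genes, 28 in all and 25 tested, are not needed in an endocycle, and their RNA was present at 236 to 437 summed CPM per library. With sucrose 0 passed by edgeR, beside 2.34% of all genes, and 5 had an unadjusted p under 0.05, beside 15.6%. Of the 25, 23 were below 0, beside 49.6% of all genes, and the median of the 25 was -0.31. Smallest in p were 2 chromosomal passenger genes, Incenp (-0.80, SE 0.198, adjusted p = 0.0587) and borr (-1.02, SE 0.331, adjusted p = 0.148). The cytokinesis gene tum followed at -0.54, the aurora B kinase gene ial at -0.94, the anaphase activator fzy at -0.59 and the checkpoint gene mad2 at -0.83 (adjusted p = 0.183, 0.289, 0.289 and 0.399). Without replicate 2 of control on 0.15 M, 3 of 26 tested fell, beside 2.97% of all genes. These were cdc2, the mitotic kinase Cdk1 (-0.99, edgeR adjusted p = 0.00904), its partner Cks30A (-0.96, adjusted p = 0.0202) and Incenp (-0.73, adjusted p = 0.0221). Against control, averaged over both diets, 0 passed, beside 11.4% of all genes, and 3 had an unadjusted p under 0.05, beside 26.9%. Incenp was at -0.63 (edgeR adjusted p = 0.0564) and passed without replicate 2 of control on 0.15 M (-0.59, edgeR adjusted p = 0.0276). The summed mitotic level was 256 ± 31.8 CPM in libraries labelled InRi and 334 ± 30.6 CPM in control on 0.7 M. On 0.15 M sucrose it was 375 ± 54.5 CPM in libraries labelled InRi and 348 ± 60.2 CPM in control (SD, n = 3 each). The lower control mean on 0.15 M rests on replicate 2, which detected 19 of the 28 genes. The control libraries held 398, 281 and 365 CPM, against 352, 437 and 335 CPM in libraries labelled InRi, with overlap.

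**Figure D4:**
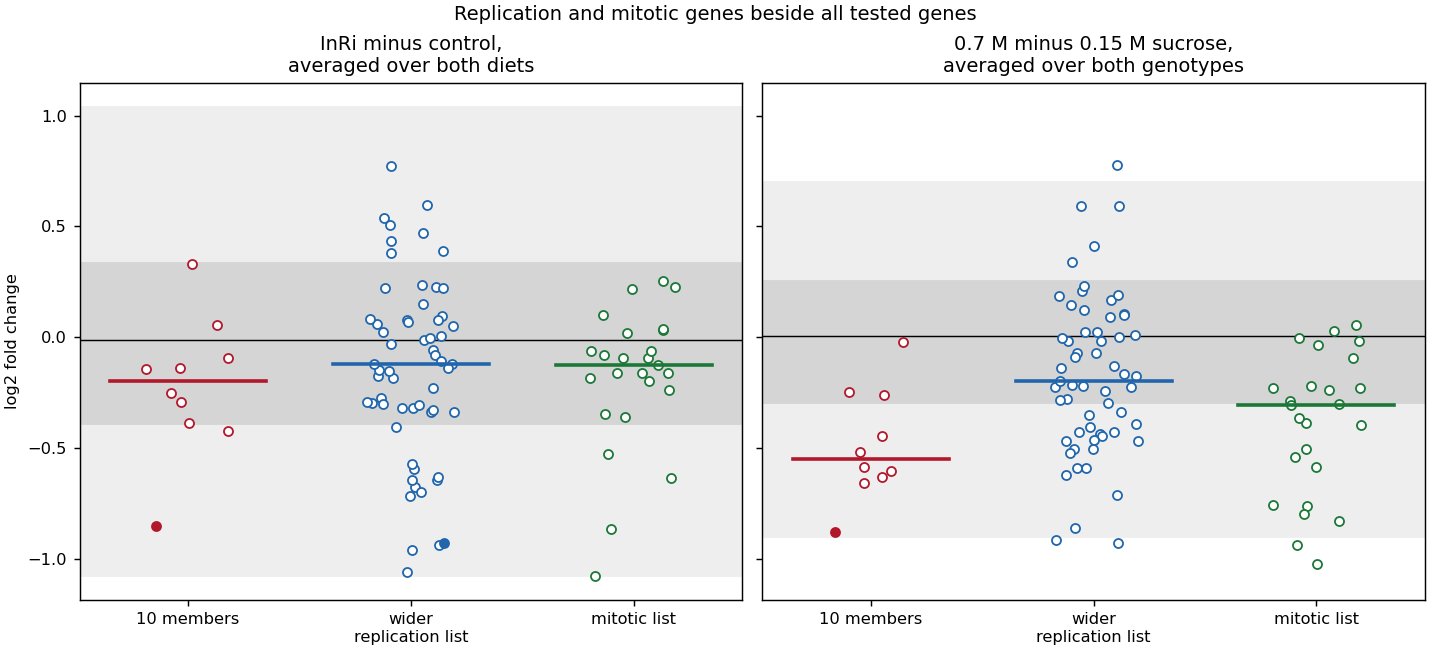
Log2 fold change (vertical axis) of the 10 replication genes, the 59 tested genes of the wider replication list and the 25 tested mitotic genes in both averaged comparisons, spread sideways for visibility. Coloured bars are medians, filled points passed an edgeR adjusted p of 0.05, and the dark and light bands hold the middle 50% and 90% of all tested genes around their median line; the median of the 10 genes with sucrose, -0.55, lies below the dark band.

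Some markers of other tissues also differed in these comparisons. In libraries labelled InRi the 10 midgut markers summed to 188 ± 111 CPM on 0.7 M and 439 ± 160 CPM on 0.15 M sucrose, with ranges of 104.9 to 314 and 342 to 624 CPM. In control they summed to 223 ± 12.04 CPM on 0.7 M and 868 ± 412 CPM on 0.15 M (SD, n = 3 each), with ranges of 209 to 231 and 484 to 1304 CPM, so that the diets did not overlap within either genotype. Averaged over both genotypes, 4 of 9 tested midgut markers were called lower on 0.7 M by edgeR, beside 0.797% of all genes. Without replicate 2 of control on 0.15 M 7 were, beside 2.97% of all genes. The 9 hemocyte markers summed to 920 to 994 CPM on 0.7 M and 756 to 1129 CPM on 0.15 M in libraries labelled InRi, and to 538 to 746 CPM and 783 to 1893 CPM in control. Of these, 1 was called lower on 0.7 M, and 6 without that library, beside the same shares of all genes. Mcm3 and the called members of both lists were thus lower on 0.7 M sucrose. Against control, averaged over both diets, where Mcm3 was lower as well, 0 of the 9 midgut markers were called and 1 hemocyte marker was called higher. In that comparison 11.4% of all genes were called in either direction. Without replicate 2 of control on 0.15 M, 1 midgut marker was called lower, beside 10.8% of all genes, and 1 hemocyte marker higher. In libraries labelled InRi on 0.15 M, replicate 2 had the highest midgut sum (624 CPM) and the highest sum of the 10 replication genes (199 CPM). In libraries labelled InRi on 0.7 M, replicate 3 had the highest midgut sum (314 CPM) and the lowest replication sum (118 CPM). In control on 0.15 M the midgut sums were 484, 818 and 1304 CPM and the replication sums 210, 207 and 212 CPM. In control on 0.7 M they were 229, 209 and 231 CPM and 143, 154 and 126 CPM.

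The 8 salivary gland markers, glands whose cells also endocycle, summed to 12.3 to 102 CPM in libraries labelled InRi and 2370 to 5467 CPM in control on 0.7 M. On 0.15 M sucrose they summed to 54.3 to 1586 CPM in libraries labelled InRi and 1346 to 2406 CPM in control. Against control, averaged over both diets, 6 of the 8 were called lower, as was Mcm3, beside 5.13% of all genes. With sucrose, averaged over both genotypes, 0 of the 8 were called, unlike Mcm3. Without replicate 2 of control on 0.15 M, 1 was called lower there, beside 2.97% of all genes. Their median log2 fold change with sucrose was 0.70 in control and -3.44 in libraries labelled InRi. Imaginal disc markers summed to 208 to 258 CPM in libraries labelled InRi and 196 to 348 CPM in control on 0.7 M, and to 228 to 363 CPM in libraries labelled InRi and 218 to 293 CPM in control on 0.15 M. The 9 nervous system markers summed to 332 to 421 CPM over the 6 libraries labelled InRi and 332 to 539 CPM over the 6 of control. The 10 germline markers summed to 34.9 to 46.9 CPM in libraries labelled InRi and 31.2 to 45.7 CPM in control on 0.7 M, and to 35.8 to 54.5 CPM in libraries labelled InRi and 20.8 to 29.4 CPM in control on 0.15 M. Of them, bam was at 0 in both control groups, zpg in control on 0.7 M and otu in control on 0.15 M. Of the 10 disc markers 0 were called by edgeR in either averaged comparison. Without replicate 2 of control on 0.15 M, 1 was called lower against control and 0 with sucrose, beside 10.8% and 2.97% of all genes lower. The median sucrose change of the disc markers was -0.71 in libraries labelled InRi and -0.02 in control, with 0 called in either. Without that library 2 were called lower with sucrose in libraries labelled InRi, beside 2.1% of all genes, and 0 in control. Of the 8 tested nervous system markers and the 3 tested germline markers, 1 each was called higher against control and 0 with sucrose. Of all genes, 11.4% and 2.34% were called in either direction in these comparisons. The part of other tissues in the changes of the replication genes was not tested.

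**Figure D5:**
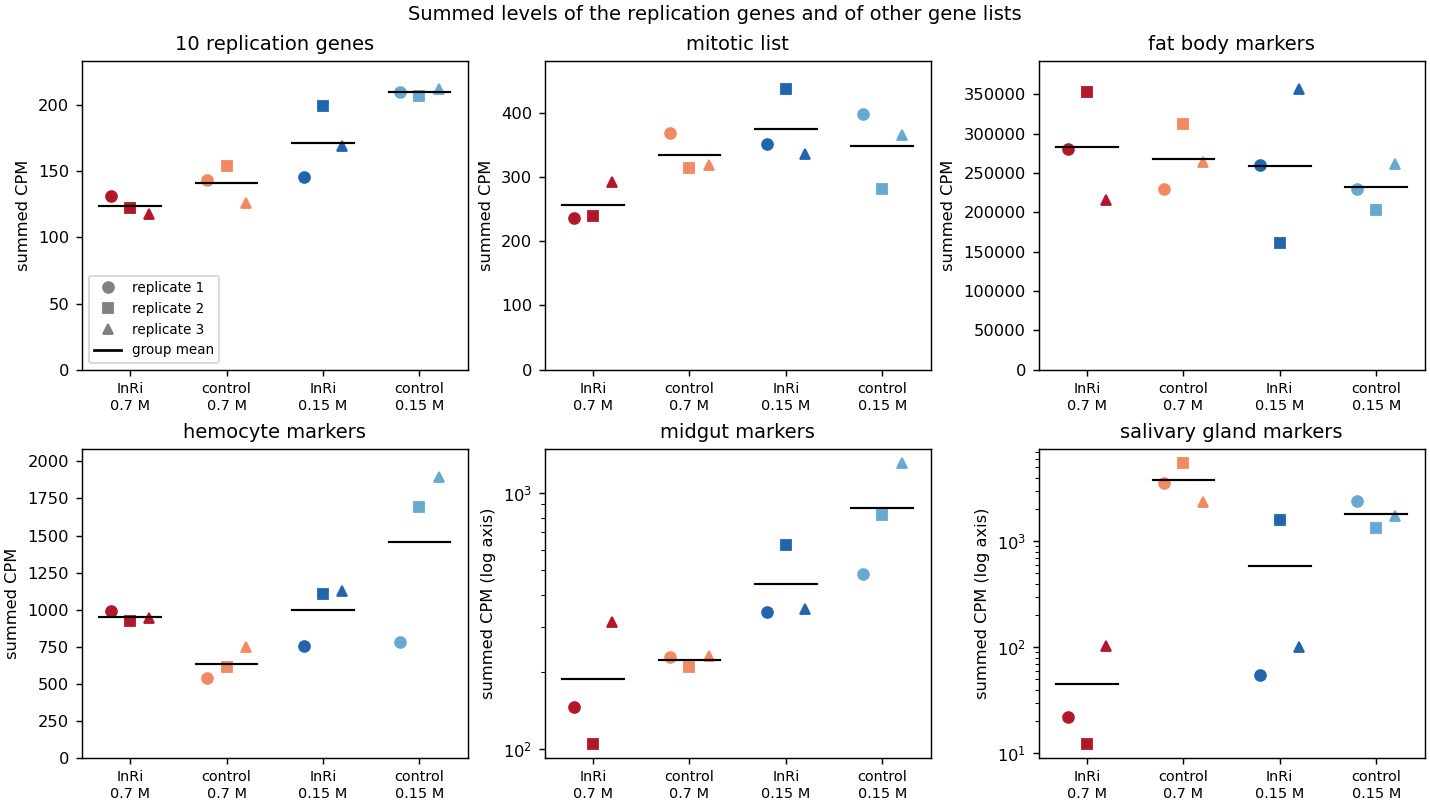
Summed level in CPM of the 10 replication genes, the mitotic list and 4 marker lists in the 12 libraries (vertical axes from 0, or log axes where labelled; symbols mark the replicate number, bars the group means). The replication genes and the midgut markers are both lower in each genotype on 0.7 M than on 0.15 M sucrose, and the salivary gland markers are at most 102 CPM in InRi-labelled libraries on 0.7 M and at least 2370 CPM in control on that diet.

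Over the 12 libraries, the 5 other genes most like the mean profile of the 5 MCM genes, among 6822 genes of at least 5 CPM on average, were GstD3, CG8664, thoc6, Hsp67Ba and Nxt1, with Pearson r of 0.927, 0.924, 0.897, 0.897 and 0.891. Over the 11 libraries without replicate 2 of control on 0.15 M they were Ote, Map60, GstD3, CG5525 and Nop56, with r of 0.965, 0.949, 0.940, 0.939 and 0.932. GstD3 was in both sets. The points share the 4 groups and the scaling of each library, so these values only describe likeness.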

How the data were processed

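The deposited table holds whole-number counts of reads per gene in 12 libraries. Per the labels' protocols, ribosomal RNA was removed with RiboZero before Illumina sequencing. Per the submitters' processing notes, the genome build was dm3 and the tools included Cufflinks 1.1.0, TopHat 1.3.2 and Bowtie 0.12.7. Neither the counting tool nor the strand setting is given in the sources used here. The 10 genes, the lists and the tests were chosen with earlier results of these data known, and no list is independent support.

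Of 15222 genes, 8662 passed filterByExpr of edgeR 4.0.16 (minimum count 10, minimum total 15), the 10 included. Its quasi-likelihood test used TMM scaling and 1 mean for each group over all 12 libraries, and p-values were adjusted by Benjamini-Hochberg over all tested genes at 0.05 in each of 7 comparisons: 4 pairwise, the interaction and 2 averages. SE is the absolute log2 fold change divided by the square root of F. Intervals (95%, exact Poisson) cover counting error only, and 3 counts were 0.423 to 3.27 CPM in a library. Exonic lengths came from a later annotation. Replicate numbers did not pair the libraries and were not used as a block. No libraries of 1 group agreed within sampling noise (chi-square per gene at least 3.81).

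Named genes were the 10, InR, up to 6 genes of smallest p per list and comparison (described for the averaged comparisons), and the 5 most alike the MCM mean. A gene of the wider replication list is not reported here. Calls without replicate 2 of control on 0.15 M fall outside this rule and were named after their values were seen. The lists are wider replication, mitotic, and markers of fat body, germline, imaginal disc, hemocyte, salivary gland, nervous system and midgut. Alternatives changed the scaling, filter, test (DESeq2 1.42.0, limma 3.58.1), block, threshold, groups fitted or left out 1 library. R 4.3.3 and Python 3.11.15 with matplotlib 3.10.9 were used, and the fits were tested on simulated data.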

Additional observations from a re-analysis of the deposited data

Results flagged for a closer look

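The ratio of RnrS to RnrL per length differed in direction between the diets. Libraries labelled InRi minus control had a mean log2 difference of 0.46 on 0.7 M sucrose, where every library labelled InRi lay above every control library, and of -0.96 on 0.15 M, where every one lay below. On 0.7 M the nearest values were only 2.84 and 2.83, and the ratio of control replicate 3 rests on 14 counts of RnrS and 11 of RnrL. Seen the other way, 0.7 M minus 0.15 M sucrose gave 0.29 in libraries labelled InRi and -1.13 in control, again with no overlap in either. Without replicate 2 of control on 0.15 M sucrose the difference on 0.15 M was -0.51 and that with sucrose in control was -0.68. The difference between these effects was not tested for the ratio. For RnrS alone the interaction did not pass (log2 fold change 0.97, edgeR adjusted p = 0.888). On 0.15 M sucrose the control ratios other than the 8.57 of the library that stood apart were 3.34 and 3.42, still above the 1.99 to 2.72 of libraries labelled InRi.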

How the results depend on the processing

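Counts are of the 10 genes called, with 0 in each pairwise comparison and the interaction and 1 in each averaged one by the edgeR fit of all libraries. With sucrose averaged over both genotypes, total counts as scaling, no filter and the replicate block gave 0 each, DESeq2 and an adjusted p under 0.10 gave 3 each, limma-voom with quality weights gave 6, and leaving out 1 library gave 0 to 6. Of all genes, edgeR called 2.34% in that comparison, DESeq2 5.58% and limma-voom 7.77%, and 2.97% were called lower without replicate 2 of control on 0.15 M. The 9 omissions that ended the Mcm3 call there were any library on 0.7 M, replicates 2 and 3 of libraries labelled InRi on 0.15 M and replicate 3 of control on 0.15 M. For libraries labelled InRi against control averaged over both diets, total counts gave 0 and omissions 0 to 1. On 0.7 M sucrose, limma-voom and a fit of only the groups compared gave 1 each, and omissions 0 to 1. For sucrose in control, DESeq2, limma-voom and an adjusted p under 0.10 gave 1 each, and omissions 0 to 1. For sucrose in libraries labelled InRi, limma-voom gave 1 and omissions 0 to 2. On 0.15 M sucrose and for the interaction every alternative run gave 0. The causes were not tested. Where no share of all genes is given for a setting, here or above, its count does not set the 10 genes apart from other genes. Of 1370 single-gene values, 24 passed only under the alternative, 16 no longer passed, and 54 changed sign without passing in either. Total counts moved the median of all genes by 0.18 on 0.15 M and by -0.25 for sucrose in libraries labelled InRi, -0.27 for the interaction and -0.12 for averaged sucrose. The replicate block ended the Mcm3 call with sucrose (-0.86, adjusted p = 0.0736). Deviations of same-numbered libraries correlated at -0.38 to 0.17 over 18 pairs, and 3 were highest with their own number. Depth limits the 10 genes most in replicate 3 of control on 0.7 M, with 116 counts over all 10.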
